A study of Mus musculus with 2 samples.

Results

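The genes described here are the 7 CDK inhibitor genes of the mouse (Cdkn1a, Cdkn1b, Cdkn1c, Cdkn2a, Cdkn2b, Cdkn2c and Cdkn2d) and the 3 D-type cyclin genes (Ccnd1, Ccnd2 and Ccnd3), 10 of the 34820 different names tested on the array. All 16 probes that carry one of these names were used, and no probe among them was picked by its value. The genes themselves were chosen with earlier results of these data known. The epidermis of pups in which SOX11 had been switched on was set against that of littermates on 2-colour microarrays, with 1 littermate pair on each of 2 arrays. The SOX11-induced pups carried K14-rtTA and TRE-Sox11-FLAG, and the control pups carried K14-rtTA alone. All pups, controls included, received doxycycline (Dox) for 12 h and were taken at postnatal day 4.5. K14-rtTA makes a Dox-dependent activator from the keratin 14 promoter, so that the transgene is driven in keratin 14 positive cells rather than in every cell of the sample. The labels give the strain FVB/N and call the pups of an array littermates, and the methods say that the pairs were matched for sex. On both arrays the labels give Cy3 to the control RNA and Cy5 to the SOX11-induced RNA. With 0 swapped arrays, a probe's response to the dye and its response to the transgene cannot be told apart.

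D cyclins bind and switch on the kinases CDK4 and CDK6, which phosphorylate the retinoblastoma protein RB1 and thereby release E2F factors that drive entry into S phase. Inhibitors of the INK4 family (p16 from Cdkn2a, p15 from Cdkn2b, p18 from Cdkn2c and p19 from Cdkn2d) bind CDK4 and CDK6 directly, while those of the CIP/KIP family (p21 from Cdkn1a, p27 from Cdkn1b and p57 from Cdkn1c) bind complexes of cyclins with CDKs. In the epidermis, basal keratinocytes divide and leave the cell cycle as they move into the suprabasal layers.

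Of the 3 families, the D cyclins had the lowest median log2 ratio of SOX11-induced over control, -0.56, against -0.22 for the INK4 and -0.05 for the CIP/KIP probes above background. The single Ccnd1 probe fell in SOX11-induced epidermis, to 0.423 of the control level, with a mean log2 ratio of -1.24 ± 0.63 (SD, n = 2 pairs). The probe of Cdkn2d fell to 0.587 of control, with a mean log2 ratio of -0.77 ± 0.24. For Cdkn1a the probes disagreed: a probe listed for another transcript rose 1.71-fold, while the probe of the main mRNA had a ratio of 0.949. The remaining members did not pass the test.

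The test was limma's moderated test on the log2 ratios of both pairs, with p-values adjusted over all 55676 probes by the Benjamini-Hochberg method, and a call needed an adjusted p under 0.05. By this rule 1 member probe of 16 was higher and 2 were lower, where 2.9% of all probes were called higher and 1.35% lower. No member probe was past a log2 ratio of 1.5 in either direction as well, a threshold that 0.365% of all probes passed upward and 0.0862% downward. At an unadjusted p under 0.05, limma gave 2 of the 16 member probes higher and 5 lower. Over all probes, 11.9% were higher and 9.12% lower in this way. The shares of all probes include 31589 that were above background in no sample. A fit without dim probes kept 21782, each of which cleared background on either array in the control or the SOX11-induced sample. Of these, 7.77% were called higher and 3.78% lower at an adjusted p under 0.05. In that fit 1 member probe was called higher and 3 lower. Littermate pairs are separate animals, but an exact sign-flip test on 2 pairs cannot give a p under 0.5, so that each call rests on the spread that limma borrows from all probes.

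Of the 16 probes, 13 were well above background in all 4 RNA samples, and these cover 9 of the 10 genes. Over the 13, the median of the mean log2 ratios was -0.17, against 0.02 over all 19095 probes above background in the same way. Of the 13, 8 had a negative ratio in both pairs, 2 a positive one in both and 3 changed sign between the pairs. Among all 19095, 35.5% were negative in both pairs and 39.1% positive in both. For 7 of the 13 both SOX11-induced levels lay below both controls and for 1 above both, against 24.95% and 29.0% of the 19095. The SD of a member between the pairs had a median of 0.133 and ran from 0.013 to 0.627, and its 2 widest values were those of Ccnd1 and Ccnd2.

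**Figure D1:**
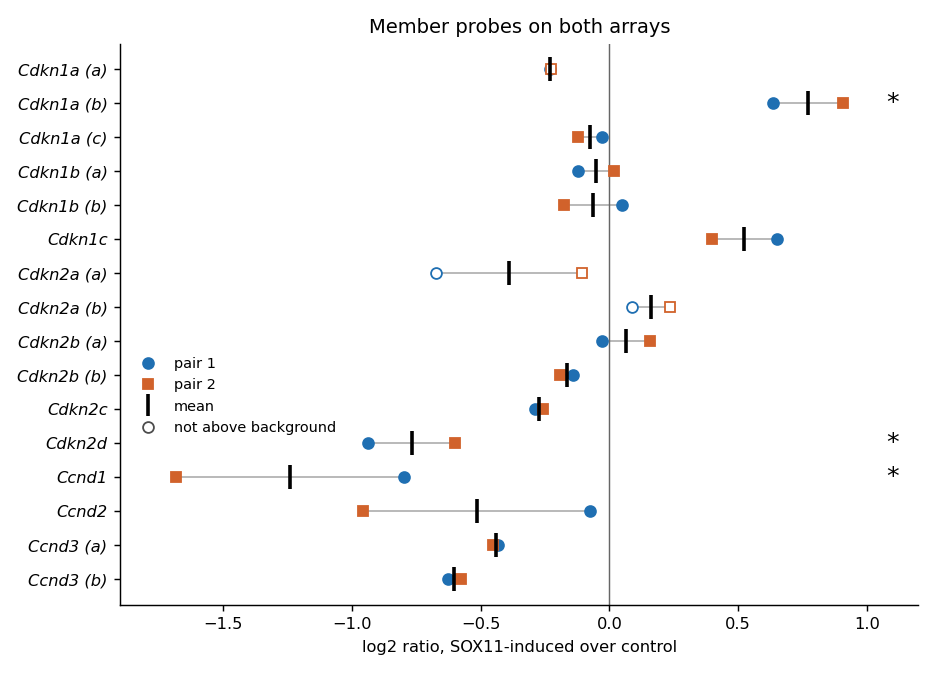
Log2 ratio of SOX11-induced over control epidermis (horizontal axis) for the 16 member probes (rows) in pair 1 (circles) and pair 2 (squares), with the mean of both as a vertical bar, open symbols for probes not above background and a star where the limma adjusted p was under 0.05. Letters number the probes of a gene by position. Ccnd1 and Cdkn2d lie left of 0 and Cdkn1a (b) right of it, with means of -1.24, -0.77 and 0.77, and Ccnd1 and Ccnd2 have the widest distance between the pairs.

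The scale of each ratio depends on how the arrays were centred. The arrays were centred by loess, a curve that sets the typical ratio to 0 at each brightness. Centring each array on its median instead moved the median ratio of the 19095 probes above background from 0.02 to 0.53. Ratios given below as relative to the shift have this 0.53 subtracted. The subtraction sets the typical probe above background to 0 again, much as loess does, so they are no separate check of the loess values. The source of the shift was not tested. Under median centring, member calls stood at 5 higher and 2 lower of 16, where 21.8% of all probes were called higher and 11.4% lower. The higher ones were Cdkn1a (b) and (c), Cdkn1b (b), Cdkn1c and Cdkn2b (a). The lower ones were Ccnd1 and Cdkn2a (a), a probe not above background in any sample, and Cdkn2d was not called.

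Cyclin D1 is the D cyclin best known as a target of growth factor signals. Its probe lies at chr7:152116202-152116261 on mm9, on the minus strand. The last 30 of its 60 bases are printed because this probe carried the member with the largest change.

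Ccnd1: gttttgtgttaattacagcattgtgctaat

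On the log2 scale the Ccnd1 level was 10.05 in the control and 9.25 in the SOX11-induced pup of pair 1. In pair 2 it was 10.35 in the control and 8.67 in the SOX11-induced pup. Both SOX11-induced samples lay below both controls. The log2 ratios were -0.80 in pair 1 and -1.69 in pair 2, the mean had a 95% interval of -1.71 to -0.77, and the limma adjusted p was 0.0129. The direction held under each scaling tried, with -0.65 under median centring, which is -1.18 relative to the shift of all probes above background.

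Cyclin D2 gave a different picture in each pair. Its probe (chr6:127098696-127098755, mm9) read 11.24 in the control and 11.17 in the SOX11-induced pup of pair 1, a log2 ratio of -0.07. In pair 2 it read 11.42 and 10.46, a log2 ratio of -0.96. Both SOX11-induced levels lay under both controls, but the drop in pair 1 was small. The mean log2 ratio of -0.52 ± 0.62 did not pass the test, with a limma adjusted p of 0.199. Its sign turned to 0.13 under median centring, or -0.41 relative to the shift.

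Cyclin D3 was measured by a pair of probes that gave close values. The probe at chr17:47736579-47736638 (mm9) read 10.99 in the control and 10.37 in the SOX11-induced pup of pair 1, and 11.11 and 10.54 in pair 2. Its mean log2 ratio was -0.60 ± 0.03, with a limma adjusted p of 0.0579, just outside the threshold, and it was past the threshold in 3 of 10 alternative settings. The probe at chr17:47736267-47736326 had log2 ratios of -0.43 and -0.45, with a limma adjusted p of 0.134, and was past the threshold in 1 of 10 alternative settings. Median centring turned both to small positive values of 0.033 and 0.17, which are -0.50 and -0.37 relative to the shift. Thus all 4 D cyclin probes were lower in both pairs, with a median of -0.56, and only that of Ccnd1 passed the test in the main setting. In whole epidermis, fewer cells of a type and less RNA per cell cannot be told apart.

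**Figure D2:**
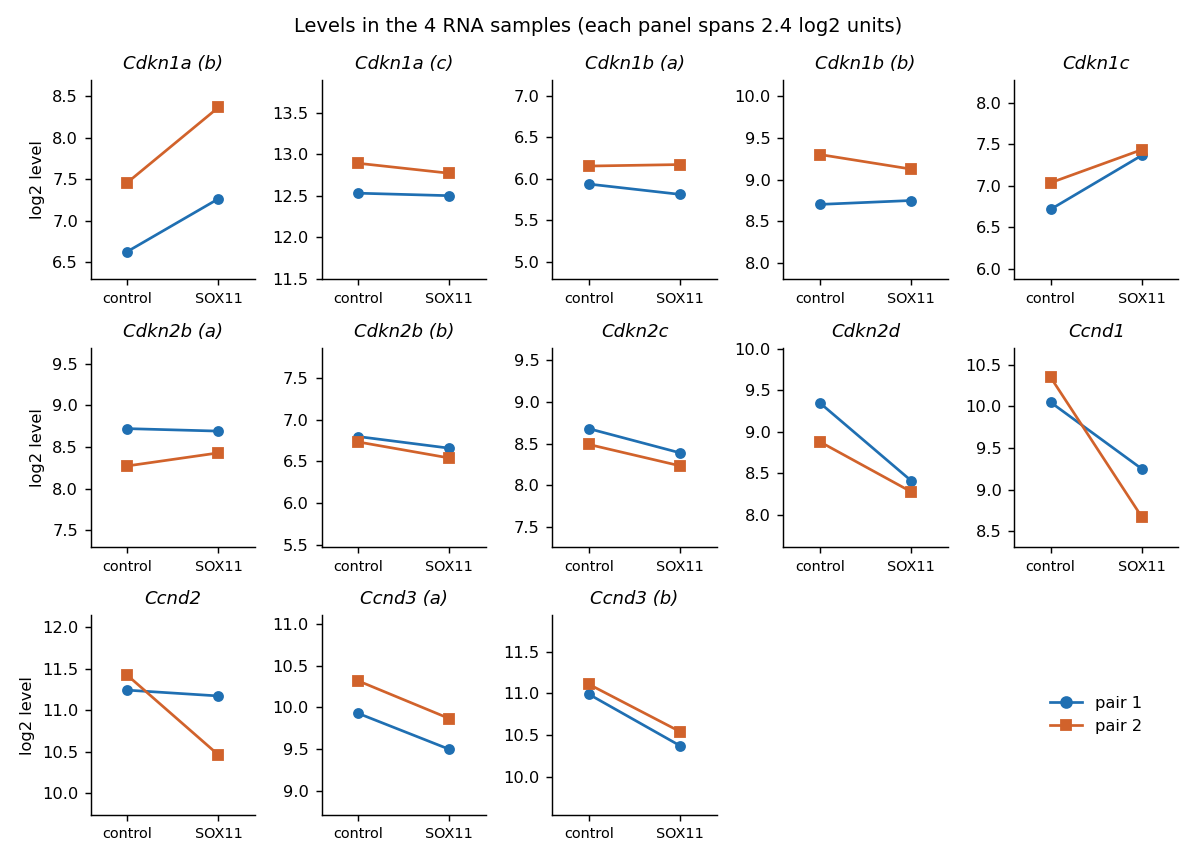
Log2 level (vertical axis, loess-corrected and scaled between arrays) in control and SOX11-induced epidermis for the 13 member probes above background, 1 panel each, with pair 1 as circles and pair 2 as squares and a line joining littermates. Every panel spans the same range, so slopes can be compared. The lines of Ccnd1, Cdkn2d and both Ccnd3 probes fall in both pairs, that of Ccnd2 falls in pair 2 and is nearly flat in pair 1, and that of Cdkn1a (b) climbs in both.

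Among the INK4 genes, Cdkn2d was the one that passed the test. Its probe (chr9:21092934-21092993, mm9, minus strand) ends in the following 30 bases, shown as the second member to fall.

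Cdkn2d: aggtttccagtctgttgtacagagtttgaa

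The Cdkn2d level was 9.35 in the control and 8.41 in the SOX11-induced pup of pair 1, and 8.88 and 8.28 in pair 2. Both SOX11-induced samples were below both controls. The log2 ratios of -0.94 and -0.60 gave a 95% interval of the mean of -1.13 to -0.41 and a limma adjusted p of 0.0305. The call was lost on the authors' own log2 ratios (mean -0.77, adjusted p = 0.0508) and with the median in place of the mean brightness of a spot (adjusted p = 0.0516), where the ratio itself hardly moved. Both settings gave the same mean log2 ratio, so they are not separate checks. Under median centring the log2 ratio was -0.22 (adjusted p = 0.339), or -0.75 relative to the shift.

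Cdkn2c, which encodes p18, had log2 ratios of -0.29 and -0.26 and a limma adjusted p of 0.33. Its mean of -0.27 had a 95% interval of -0.61 to 0.06 and turned to 0.26 under median centring, or -0.27 relative to the shift. The pair of Cdkn2b probes had mean log2 ratios of 0.06 ± 0.13 and -0.17 ± 0.04 and adjusted p-values of 0.85 and 0.566, and did not pass. Under median centring the first read 0.60 and was called (adjusted p = 0.0165), or 0.07 relative to the shift, and the second turned to 0.17, or -0.37 relative to the shift. Cdkn2a, which gives both p16 and the ARF protein from different reading frames, had 2 probes at chr4:88920405-88920464 and chr4:88920543-88920602. Neither was well above background in any of the 4 samples, so no ratio is read for this gene.

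Cdkn1a carries 3 probes on chromosome 17, and what was measured depended on the probe. The last 30 bases of each are printed 5′ to 3′ to show that they read different parts of the gene, and the capitals in the second mark the ATG with which the coding sequence of p21 opens.

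Cdkn1a (a), chr17:29227986-29228045: acgtcccactttgccagcagaataaaaggt

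Cdkn1a (b), chr17:29235299-29235358: tcttgtgtttcagccacaggcaccATGtcc

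Cdkn1a (c), chr17:29237377-29237436: gctgatcctttctcagtgttgaataccgtg

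Probe (c), listed for the main RefSeq mRNA, was spotted 10 times on each array. It read 12.53 in the control and 12.50 in the SOX11-induced pup of pair 1, and 12.89 and 12.77 in pair 2. These levels overlapped between the groups. The 10 spots had a mean log2 ratio of -0.03 ± 0.05 (SD over spots) on array 1 and -0.12 ± 0.04 on array 2. The mean of the pairs was -0.08 ± 0.07, with a 95% interval of -0.41 to 0.26 and a limma adjusted p of 0.815. Under median centring it read 0.63, or 0.09 relative to the shift, and was called (limma adjusted p = 0.013).

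Probe (b), listed for another Ensembl transcript (ENSMUST00000122348), read 6.63 in the control and 7.27 in the SOX11-induced pup of pair 1, and 7.46 and 8.37 in pair 2. The SOX11-induced pup was higher in both pairs, but the levels overlapped between the groups because both samples of pair 2 were brighter. The mean log2 ratio was 0.77 ± 0.19, with a 95% interval of 0.42 to 1.12 and a limma adjusted p of 0.0278. The log2 ratio of probe (c) minus that of probe (b) was -0.67 in pair 1 and -1.03 in pair 2. That difference was not tested across the array. Probe (a), listed for a second RefSeq variant, was not above background in any sample.

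Cdkn1c, the imprinted gene of p57, had log2 ratios of 0.65 and 0.40. Its level was 6.72 in the control and 7.37 in the SOX11-induced pup of pair 1, and 7.04 and 7.44 in pair 2, so that both SOX11-induced samples lay above both controls. The mean of 0.52 ± 0.18 had a limma adjusted p of 0.0958 and did not pass. It was past the threshold in 3 of 10 alternative settings and positive in each. The probes of Cdkn1b had log2 ratios between -0.17 and 0.05 in both pairs, means of -0.05 and -0.06 and adjusted p-values of 0.878 and 0.851. Both Cdkn1b means turned positive under median centring, to 0.13 and 0.50, or -0.40 and -0.03 relative to the shift. The second was called there (limma adjusted p = 0.0316).

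**Figure D3:**
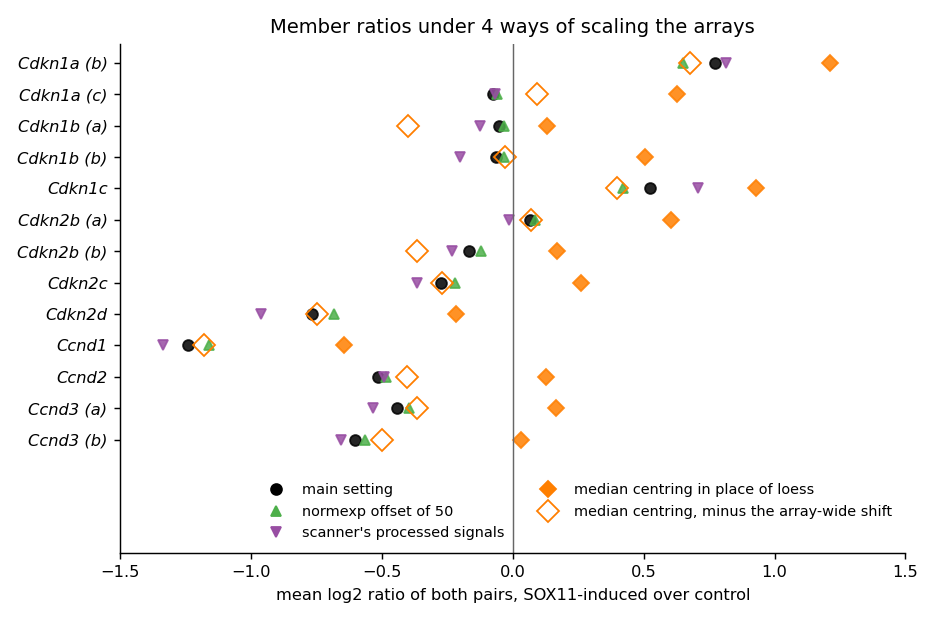
Mean log2 ratio of both pairs (horizontal axis) for the 13 member probes above background (rows) under the main setting, a larger normexp offset, the processed signals of the scanner software and median centring, with median centring also shown minus the shift of 0.53 that all probes above background had. The filled diamonds lie right of the other symbols for each probe, and the open diamonds of Ccnd1, Cdkn2d and both Ccnd3 probes lie near the main values.

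Whether promoter sequences of the members share letters known from SOX factors was checked in windows from RefSeq on GRCm38, each running from 250 bases before a start site to 50 after it. The table holds 11 windows for 7 of the members. It holds none for Ccnd1, Ccnd2 or Cdkn1c, so their promoters were not searched. The SOX core letters ACAAAG or ACAATG, on either strand, were found in 1 of the 11 windows, that of a Ccnd3 start site, which held 2 matches, and in 28.6% of all 32851 windows. The stretch at chr17:47505002-47505037 (plus strand) holds the match that lies before the start site, read on the opposite strand, in capitals.

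Ccnd3: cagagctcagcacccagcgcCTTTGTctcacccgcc

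Since p21 is the textbook target of p53, the windows were also searched for the p53 decamer, the 10-letter unit of its binding element. A window of Cdkn1a held 2 and a window of Cdkn2d held 1, while 8.36% of all windows held at least 1. The Cdkn1a stretch at chr17:29090908-29090947 (GRCm38, plus strand) is shown with the decamer nearer to the start in capitals.

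Cdkn1a: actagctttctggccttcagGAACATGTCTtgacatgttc

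These matches are descriptions of letters, and no binding was measured here.

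The genes around the members were counted by their brightest probe, from lists that hold 86 other genes, all with a probe. Of these, 12 were higher and 5 were lower by the limma adjusted p, where 3.42% of all names were called higher by their brightest probe and 1.72% lower. The lists were chosen with earlier results of these data known, so the counts do not test whether listed genes changed more often than others. Those shares are over all 34820 names, of which 14612 were above background in all samples. A share over the latter alone was not counted. Over the 14612 names above background, the median log2 ratio was 0.01.

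Cdk4, the kinase that D cyclins switch on, rose. Its level was 11.80 in the control and 13.04 in the SOX11-induced pup of pair 1, and 11.77 and 12.80 in pair 2. All 3 Cdk4 probes rose, with mean log2 ratios of 1.21, 1.14 and 1.14 and adjusted p-values of 0.00401, 0.00415 and 0.00416. The other kinase, Cdk6, was not above background in any sample. Thus in both pairs Cdk4 was higher while Ccnd1 was lower.

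In the module of cyclin E and CDK2, Cdc25a, a phosphatase that activates CDK2, rose with log2 ratios of 0.94 and 1.08 (limma adjusted p = 0.00702), and the other 3 genes did not pass. Among 13 pocket proteins and E2F or DP factors, Tfdp2, a partner of E2F factors, rose (0.66 ± 0.06, adjusted p = 0.0428) and none fell. The Tfdp2 call was lost on the authors' own log2 ratios, with a mean of 0.63 and an adjusted p of 0.0705. The list's median over its 11 genes above background was -0.26. Rb1 had a mean of -0.15 ± 0.09 and an adjusted p of 0.61. None of the 10 genes that break down the inhibitors or D cyclins passed the test, with means from -0.33 to 0.55.

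Of 17 upstream regulators, 3 rose and none fell. Ezh2, the methyltransferase that represses the Cdkn2a and Cdkn2b locus in keratinocytes, had log2 ratios of 1.33 and 1.64 (limma adjusted p = 0.00118). Bmi1, of the other Polycomb complex and known for the same locus, had 0.67 and 0.82 at its brightest probe (adjusted p = 0.0281), while its other probe had a mean of 0.40 and did not pass. Smad3, which carries TGF-beta signals to Cdkn2b and Cdkn1a, had 1.78 and 1.03 (adjusted p = 0.00484), and its other probe, above background in 2 of 4 samples, had a mean of 0.47 and did not pass. Trp53 had log2 ratios of 0.62 and 0.25 and an adjusted p of 0.166.

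Among 20 p53 target genes other than Cdkn1a, 6 rose and 2 fell. Plk2, Gadd45a, Pmaip1, Trp53inp1 and Trp53i11 rose with mean log2 ratios of 0.95, 0.87, 0.86, 1.04 and 0.77 at their brightest probes. The other Trp53i11 probe, above background in all 4 samples, had a mean of 0.48 and did not pass (limma adjusted p = 0.109). The other Trp53inp1 probe had a mean of 0.68 and passed (limma adjusted p = 0.0371). Eda2r was called too, but was above background in 1 of the SOX11-induced samples and in no control, so no size is read. Its other probe, above background in no sample, had a mean of -0.07 and did not pass. Bbc3, which encodes the cell death protein PUMA, fell by 1.05 on the log2 scale (limma adjusted p = 0.00635). Fas was above background in both controls and in no SOX11-induced sample, and was at least 2.57-fold lower (adjusted p = 0.000215). The list thus held changes in both directions, with a median of 0.09 over its 17 genes above background.

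Among genes of cycling cells, 1 of 5 S phase and mitotic genes and 1 of 9 proliferation markers fell and none rose. Ccna2, the cyclin of S phase, fell with log2 ratios of -0.88 and -0.97 (limma adjusted p = 0.0105), and the median over the 4 of 5 genes of the mitotic list above background was -0.52. Both probes of Mki67, which marks cycling cells, fell, with means of -0.90 and -0.97. The 9 proliferation markers had a median of -0.37 and Mki67 was the one that passed. Cdkn3, a phosphatase that acts on CDKs, fell with -0.97 and -0.64 (adjusted p = 0.0255). Under median centring Ccna2, Mki67 and Cdkn3 kept a negative sign, with -0.35, -0.26 and -0.40, and none of them passed there.

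**Figure D4:**
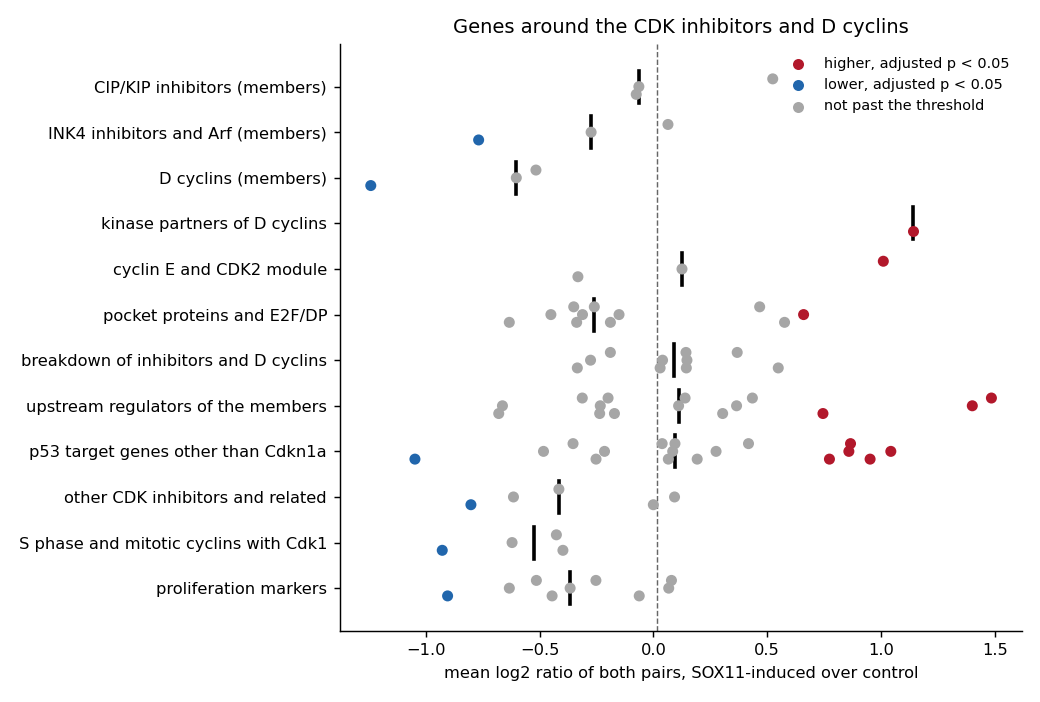
Mean log2 ratio of both pairs (horizontal axis) for the brightest probe of each gene above background in all 4 samples, by list (rows), in red where higher and in blue where lower at a limma adjusted p under 0.05 and in grey otherwise. Black bars are list medians and the dashed line is the median of all names above background, 0.01. Cdk4 stands at 1.14 and the D cyclins between -1.24 and -0.52, while the p53 targets have red and blue points.

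The genes whose ratios lay nearest to those of Ccnd1, by Euclidean distance over the 2 arrays among 19094 probes, were Scx (distance 0.0125), Jag2 (0.148) and Wnt6 (0.178). Their log2 ratios were -0.81 and -1.70 for Scx, -0.92 and -1.77 for Jag2 and -0.96 and -1.60 for Wnt6. With 2 points per probe, closeness of this kind is a description only.

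The samples differed in ways that bear on these values. On arrays 1 and 2, 37.5% and 38.7% of spots were above background in the control channel (Cy3). In the SOX11-induced channel (Cy5) the shares were higher, at 40.65% and 42.6%. Neither Sox11 probe of the array was above background in any sample, so the arrays do not check the induction. The 7 basal keratinocyte markers were all above background. Among them Krt15 and Col17a1 fell, and the summed log2 level of the list was 18.06 and 17.80 in the controls and 17.76 and 17.22 in the SOX11-induced samples. None of the 6 suprabasal markers with a probe passed, but 5 of them were higher in both pairs. Their median log2 ratio was 0.43, against -0.41 for the basal list, and their summed log2 level was 18.77 and 18.45 in the controls and 19.12 and 19.09 in the SOX11-induced samples. The part of these lists in the values of the D cyclins and the genes of cycling cells was not tested. The 17 genes of hair matrix, shaft and inner root sheath stood far apart between the pairs, with a median log2 ratio in pair 1 of 2.00 and in pair 2 of -0.26. Their summed log2 levels were 16.35 and 19.06 in the controls and 18.35 and 18.73 in the SOX11-induced samples. Ccnd1 and Ccnd2 were lower by a larger step in pair 2 than in pair 1, and the part of the hair genes in this was not tested. Of 8 dermal fibroblast markers, 4 were below background in every sample. The median log2 ratio of the other 4 was -0.17 for pair 1, 0.84 for pair 2 and 0.37 for the means of both, and among them Dcn fell. None of the markers of melanocytes (7), immune cells (9), endothelium (4), muscle (5) or nerve and Schwann cells (4) passed the test, and none of the muscle markers was above background in all 4 samples.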

How the data were processed

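Epidermis of 2 littermate pairs was measured on 2-colour Agilent arrays. Intensity values deposited by the authors are the brightness of each spot and its background per channel, from Agilent Feature Extraction 10.7.3.1 per the file headers, with positions on mm9. The deposited processed signals are intensities after the software's background subtraction and dye normalization. The deposited log10 ratio column was not used. The authors' own log2 ratios, from the series table, served as an alternative.

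Following the methods, normexp with an offset of 16 and loess within each array were applied in R 4.3.3 with limma 3.58.1. Control spots and outlier-flagged spots (194 and 186 of 59305) were then left out, spots of a probe were averaged and an intercept was fitted to the log2 ratios, with eBayes and Benjamini-Hochberg adjustment over 55676 probes. The prior had 8.14 degrees of freedom. Each ratio is the paired difference of littermates. Levels per sample are after loess and Aquantile scaling. The bound for Fas takes the dim side as the higher of its own signal and the lowest signal of a probe well above background. It is open to dye bias. Only 2 arrays limit the precision. The scripts were tested on simulated data.

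Named were all 10 members, listed genes past an adjusted p of 0.05, Cdk4, Cdk6, Rb1 and Trp53, and the 3 genes nearest to the member with the largest mean. Of the 86 other listed genes, 85 matched by the array's name and 1 by RefSeq accession. The members and lists were chosen with earlier results of these data known. The methods describe a colour swap and a ComBat step for the dyes, and the labels show no swap on these arrays.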

Additional observations from a re-analysis of the deposited data

How the results depend on the processing

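Each array holds a littermate pair, so the values are paired differences, and no unpaired fit was run. Leaving out a pair leaves a single ratio and no test: the median log2 ratio of the 13 member probes above background was then -0.12 to -0.19, against -0.17. With a normexp offset of 50, 2 member probes were higher and 4 lower, where 5.11% and 2.73% of all probes were called, and with a brightness trend in eBayes 2 were higher and 3 lower, where 5.27% and 3.02% were called, against 1 and 2 of 16 as reported. With the processed signals 0 were higher and 0 lower by limma, as was true of all 55676 probes, with 5 members and 17.5% of all probes at an unadjusted p under 0.05, and the median was -0.23. With the median brightness of a spot, and on the authors' log2 ratios, 1 member probe was lower, where 1.04% and 1.06% of all probes were. Median centring, where 21.8% of all probes were called higher and 11.4% lower, gave 5 higher and a median of 0.17. It gave 38 surrounding genes higher and 3 lower, against 12 and 5. It turned the sign of Cdkn1a (c) to 0.63, of the Cdkn1b probes to 0.13 and 0.50, of Cdkn2a (b) to -0.13, of Cdkn2b (b) to 0.17, of Cdkn2c to 0.26, of Ccnd2 to 0.13 and of the Ccnd3 probes to 0.17 and 0.033. The processed signals turned Cdkn2a (b) to -0.14 and Cdkn2b (a) to -0.013. By construction median centring leaves the trend of the ratio with brightness in place; the cause of the other moves was not tested. In no setting was a member past a log2 ratio of 1.5 at an adjusted p under 0.05. Ccnd1 and Cdkn1a (b) passed in 9 of 10 alternatives, all but the processed signals, and Cdkn2d in 6. Among these alternatives, the authors' log2 ratios and the median brightness of a spot gave the same mean log2 ratio for every member probe, so they are not separate. A prior without a floor on small variances and control spots at weight 0 in loess, both chosen after seeing the data, changed no member call.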
